A study of Homo sapiens with 6 samples.

Results

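The MHC class I antigen presentation genes examined here were HLA-B, HLA-C, HLA-E, B2M, TAP1, TAP2, PSMB8, PSMB9 and NLRC5. They were chosen by gene symbol, and all 9 were found among the 17100 genes of the deposited table. RNA sequencing counts came from MDA-MB-231, a single established human line of triple-negative breast adenocarcinoma. Vehicle-treated cells gave 3 libraries, and cells exposed to 1 µM of guadecitabine (SGI-110) for 96 h, followed by 24 h without drug, gave another 3. Guadecitabine inhibits DNA methyltransferases through decitabine, which it sets free, and the comparison asks which class I genes differed in RNA level after the exposure. The replicates are from independent experiments with 1 line, at 1 dose and 1 time of harvest, so that the groups describe this line alone.

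MHC class I molecules show peptides from inside the cell to CD8+ T cells, and they also engage receptors of natural killer cells. Proteasomes cut proteins into peptides, and interferon-gamma exchanges their catalytic subunits for those of the immunoproteasome. The TAP transporter carries the peptides into the endoplasmic reticulum, where a loading complex fits them to a heavy chain paired with beta-2-microglobulin. The promoters of these genes are known for a shared control region that the transactivator NLRC5 uses, with sites for interferon regulatory factors and NF-kB nearby. Tumour cells that lose parts of this pathway can escape T cells.

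The vehicle libraries held 17602570 to 22277442 counts and the SGI-110 libraries 8792127 to 21410849, of which the shallowest was SGI-110 replicate 2. Vehicle replicate 3 had 20 transcripts without a count, against 1593 to 2517 in the other 5 libraries. After normalization, SGI-110 replicate 2 was the highest of its group in 8 of the 9 genes, as it was in 36.4% of all genes tested, and vehicle replicate 3 was the lowest of its group in 8 of 9, against 42.3% of all genes. The line's markers VIM, CD44, KRT8 and KRT18 were abundant in all libraries, and in the fit across all genes VIM (1.26-fold, edgeR adjusted p = 0.0258) and CD44 (2.27-fold, adjusted p = 2.66e-05) were higher after SGI-110, KRT8 was lower (0.678-fold, adjusted p = 0.00477) and KRT18 was not called (0.911-fold, adjusted p = 0.521). Of 8 leukocyte markers 6 were in the table, and their summed normalized counts were 389.6 to 565.3 in vehicle and 272 to 298.8 in SGI-110, most of it CD14 and CSF1R. Of these, CSF1R was lower after SGI-110 (0.402-fold, edgeR adjusted p = 0.000115) and CD14 was not called (1.09-fold, adjusted p = 0.618). Without these genes the sums were 0.952, 4.22 and 108 for vehicle replicates 1 to 3 and 6.11 to 10.5 for SGI-110, and MS4A1 had 24 raw counts in vehicle replicate 3 and 0 in every other library. ESR1, which this line is known to lack, had 67 raw counts in vehicle replicate 3 and at most 1 elsewhere. The part of these reads in the class I values was not tested. In RNA from whole cultures, a change in the share of expressing cells and a change in RNA per cell cannot be told apart.

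HLA-B, TAP1, TAP2, B2M and PSMB8 rose after SGI-110, by 1.31-fold for B2M to 2.42-fold for TAP1. HLA-C, HLA-E, PSMB9 and NLRC5 did not pass the test. Genes were tested with the quasi-likelihood F test of edgeR at 0.05, on p-values adjusted by Benjamini-Hochberg across 13322 genes. It called 5 of the 9 genes higher and 0 lower, against 19.3% of all tested genes called higher and 18.4% called lower. Among the 6535 genes at least as abundant as the least abundant member, 21.2% were called higher and 20% lower. The median log2 fold change was 0.44 over the 9 genes and 0.018 over all genes tested. In 5 genes every SGI-110 library lay above every vehicle library, as in 26.6% of all genes tested, and in 1 gene every SGI-110 library lay below, as in 25%. The 9 genes share a pathway and 7 share chromosome 6, so they are not independent replicates of a response. Exact permutation tests of single genes, two-sided, cannot go below p = 0.1 with 3 libraries against 3.

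**Figure D1:**
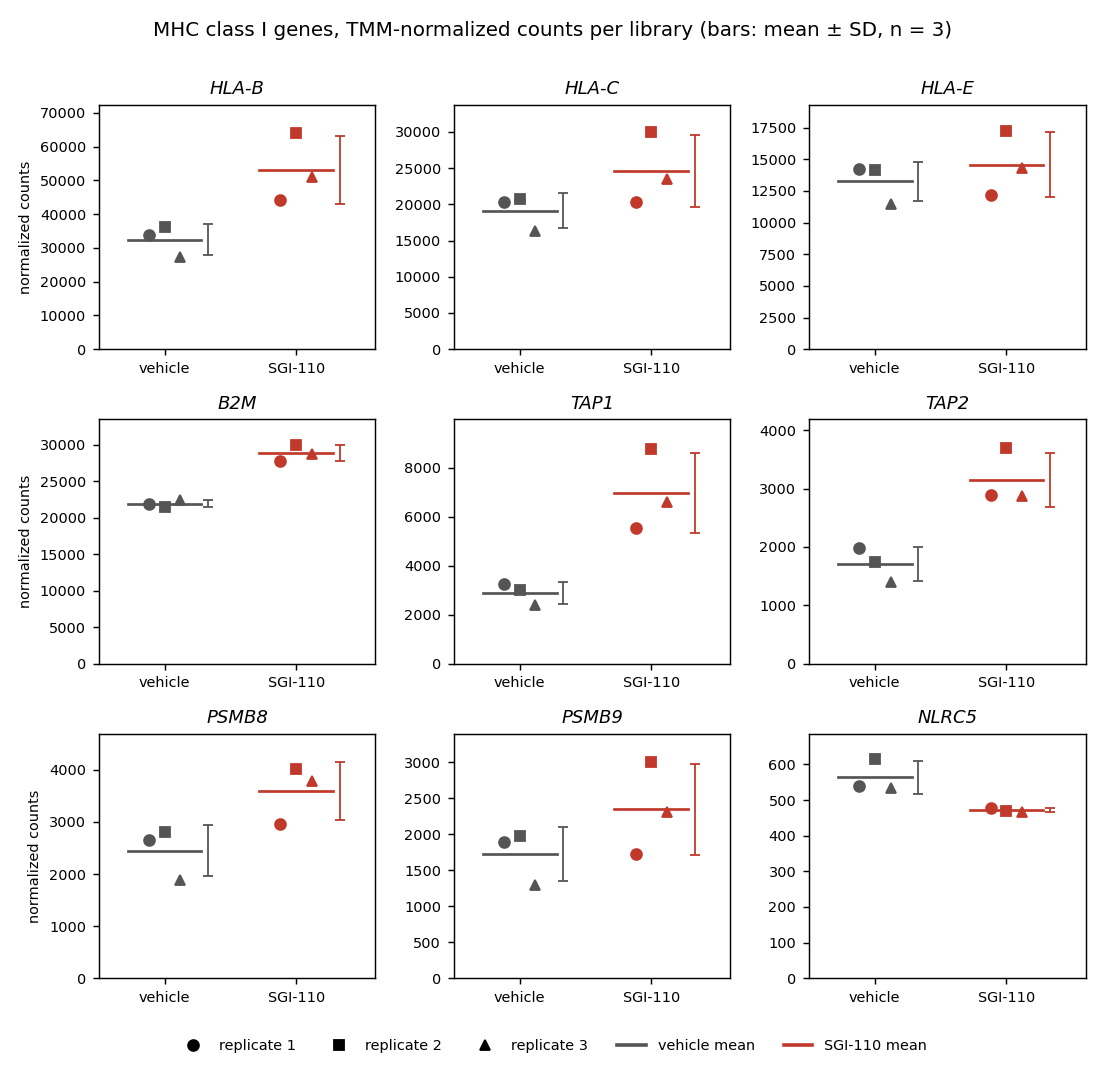
Normalized counts (TMM, scaled to the mean library total; y axes start at 0 and differ between panels) of the 9 genes in each library, with the replicate number as the symbol, the group mean as a line and ± SD as a bar, n = 3. The groups do not overlap for HLA-B, B2M, TAP1, TAP2, PSMB8 and, in the opposite direction, NLRC5, and SGI-110 replicate 2 (square) is the highest of its group except for NLRC5.

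HLA-B and HLA-C encode classical heavy chains, which bind the peptide and are read by T cells, while HLA-E encodes a nonclassical chain that presents leader peptides of other class I chains to NKG2A receptors. On GRCh37, the build used for the counts, HLA-B lies on chromosome 6 from 31321649 to 31324989 and HLA-C from 31236526 to 31239913, both on the minus strand, and HLA-E from 30457183 to 30461982 on the plus strand. HLA-B had 33912.7, 36155.7 and 27308 normalized counts in vehicle replicates 1 to 3 and 44229.4, 63899.3 and 50971.4 in SGI-110. Every SGI-110 library lay above every vehicle library. The means were 32458.8 ± 4600 and 53033.4 ± 10000 (SD, n = 3 each), a log2 fold change of 0.71 ± 0.15 (SE; edgeR adjusted p = 0.00622). The rise of HLA-B was 0.44 without vehicle replicate 3 and SGI-110 replicate 2 together, with an adjusted p of 0.0132, an alternative chosen after seeing the data.

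HLA-C had 20267.2, 20777.9 and 16365.2 normalized counts in vehicle and 20308.4, 29968.4 and 23432.8 in SGI-110. The groups overlapped, since SGI-110 replicate 1 lay among the vehicle libraries. The log2 fold change of HLA-C was 0.36 ± 0.15 (edgeR adjusted p = 0.0954), and it passed the threshold with library totals alone as the scaling (0.40, adjusted p = 0.0423), without SGI-110 replicate 1 (0.48, adjusted p = 0.0338) and with GC and length offsets (0.30, adjusted p = 0.0238). Without vehicle replicate 3 and SGI-110 replicate 2 together it was 0.09 (adjusted p = 0.578). HLA-E had 14186.4, 14126.5 and 11462.6 normalized counts in vehicle and 12136.6, 17240.2 and 14267 in SGI-110. Its groups overlapped widely. The log2 fold change of HLA-E was 0.13 ± 0.14 (edgeR adjusted p = 0.499), and without SGI-110 replicate 2 it was 0.00.

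Within libraries the balance of the heavy chains differed between the groups by more than the replicates varied. The ratio of HLA-B to HLA-C, in counts per kb of counted exon on the log2 scale, was 0.76, 0.81 and 0.75 in vehicle and 1.14, 1.11 and 1.13 in SGI-110. The libraries of each group lay close together, including those in which both genes were highest or lowest. The difference of 0.35 corresponds to a ratio 1.28-fold higher after SGI-110, against SDs of 0.034 and 0.017 (exact permutation p = 0.1, the smallest possible with 3 against 3, and 0.133 adjusted over 4 ratios). The log2 ratio of HLA-E to HLA-B was -2.02, -2.12 and -2.01 in vehicle and -2.63, -2.65 and -2.60 in SGI-110. HLA-E was thus lower relative to HLA-B in every SGI-110 library, a difference of -0.58 on the log2 scale (exact permutation p = 0.1, 0.133 adjusted over 4 ratios). A ratio shows unequal change and not which of its genes moved.

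The heavy chain genes resemble each other, and reads were aligned to the alleles of the reference genome. Of all stretches of 50 bases in the annotated exons, 96.7% in HLA-B, 91.3% in HLA-C and 91.9% in HLA-E occurred once in GRCh37, and for stretches of 100 bases these shares were 100%, 99.5% and 99.2%. The read length and the treatment of reads with several matches are not given in the sources used here, and the effect of the alleles of MDA-MB-231 was not tested. The counts of the HLA genes are uncertain to that extent.

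The stretches ahead of HLA-B and HLA-C are shown because the genes are close relatives whose ratio differed between the groups. They are RefSeq promoter windows of GRCh38.p14, shortened to the part holding the motifs, which matched once in GRCh37 at chr6:31325003-31325152, minus strand, for HLA-B and chr6:31239916-31240081, minus strand, for HLA-C. Capitals mark matches to the core of an interferon regulatory factor site (AANNGAAA), a kB site (GGNNTTNCC), the core of a cAMP response element (TGACG) and a CCAAT box (CCAAT), on either strand. The sequences are written 5′ to 3′ on the strand of the gene.
HLA-B: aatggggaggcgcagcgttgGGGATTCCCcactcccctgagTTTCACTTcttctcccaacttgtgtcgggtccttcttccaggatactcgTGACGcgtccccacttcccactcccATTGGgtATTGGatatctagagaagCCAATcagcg
HLA-C: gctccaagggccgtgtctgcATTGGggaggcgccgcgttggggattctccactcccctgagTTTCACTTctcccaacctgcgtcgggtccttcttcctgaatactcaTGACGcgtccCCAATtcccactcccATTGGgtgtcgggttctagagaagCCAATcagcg
Both held 1 interferon regulatory factor core and 1 cAMP response element core, and the CCAAT box was found 3 times for HLA-B and 4 times for HLA-C. The kB letters matched ahead of HLA-B and not ahead of HLA-C. A match is a run of letters and not a measured site.

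RefSeq windows of 300 bases were on hand for 7 of the 9 genes, 9 windows in all, and not for HLA-E and NLRC5. The interferon regulatory factor core was found in 6 of the 9 windows and in 22.8% of all 35116 windows of this length, and the kB pattern in 5 of 9 and in 17.1%. The cAMP response element core was found in 6 of 9 windows against 24.6% of all, and the CCAAT box in 5 of 9 against 34.6%. The windows are not independent, since TAP1 and PSMB8 gave 2 each. The first window of TAP1 overlaps that of PSMB9, and the CCAAT matches of these windows are the same bases, counted for both genes.

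B2M encodes beta-2-microglobulin, the invariant light chain that every class I heavy chain needs to fold and reach the surface. It lies on chromosome 15 from 45003685 to 45010357, apart from the MHC. B2M had 21834.8, 21543.5 and 22495 normalized counts in vehicle and 27810.6, 30021.3 and 28801.6 in SGI-110. The groups were tight and separate, and vehicle replicate 3 was not the lowest of its group here. The means were 21957.8 ± 488 and 28877.8 ± 1110 (SD, n = 3 each), and the log2 fold change was 0.40 ± 0.08 (SE; edgeR adjusted p = 0.00596). With each library's dependence on GC content and length taken out it was 0.15 (adjusted p = 0.2), which ended the call of B2M. Among the 9 genes B2M had the lowest GC content of annotated exons, 41.4%, and the shortest counted exon length, 987 bp. The shares of GC content and of length in this change were not tested apart. Across genes, the deviation from the mean of all libraries correlated with GC content at r = 0.02, 0.05 and 0 in vehicle replicates 1 to 3. In SGI-110 replicates 1 to 3 it did so at -0.33, 0.21 and 0.04. With the log of length the correlations were 0.06, 0.03 and 0.17 in vehicle and 0.06, -0.21 and -0.14 in SGI-110. These correlations are across genes, which share a library and are not replicates. By their construction the offsets also remove any difference between the groups that follows GC content or length.

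The summed heavy chains HLA-B, HLA-C and HLA-E stood to B2M, per kb, at log2 ratios of 0.84, 0.92 and 0.49 in vehicle and 0.69, 1.12 and 0.85 in SGI-110. The groups overlapped, and the difference of 0.13 lay within the SDs of 0.231 and 0.216 (exact permutation p = 0.5). The region ahead of B2M is shown because its pair of overlapping interferon regulatory factor cores and its kB match lie within a short run. It matched GRCh37 at chr15:45003553-45003675, plus strand, and capitals mark the same motifs.
B2M: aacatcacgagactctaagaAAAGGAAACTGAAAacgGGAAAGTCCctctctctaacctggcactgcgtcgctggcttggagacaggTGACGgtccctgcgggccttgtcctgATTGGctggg

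TAP1 and TAP2 encode the paired subunits of the peptide transporter, and they showed the largest changes of the 9 genes. TAP1 lies on chromosome 6 from 32812986 to 32821748 and TAP2 from 32789610 to 32806547, both on the minus strand. TAP1 had 3239, 3017.9 and 2394.9 normalized counts in vehicle and 5530.7, 8753.4 and 6624.7 in SGI-110. The lowest SGI-110 library lay far above the highest vehicle library. The means of TAP1 were 2883.9 ± 438 and 6969.6 ± 1640, a 2.42-fold rise with a log2 fold change of 1.27 ± 0.18 (edgeR adjusted p = 0.000647). Across the 6 fits that each left out 1 library, the log2 fold change of TAP1 was 1.08 to 1.41.

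TAP2 had 1988.5, 1743.4 and 1399.4 normalized counts in vehicle and 2880.7, 3687.8 and 2876.2 in SGI-110. These groups did not overlap either. The means of TAP2 were 1710.4 ± 296 and 3148.2 ± 467, with a log2 fold change of 0.88 ± 0.16 (edgeR adjusted p = 0.00224). The calls of both transporter genes were kept under every alternative fitted. Per kb, the log2 ratio of TAP1 to TAP2 was 0.73, 0.82 and 0.80 in vehicle and 0.97, 1.27 and 1.23 in SGI-110, a ratio 1.30-fold higher after SGI-110 with no overlap (exact permutation p = 0.1, 0.133 adjusted over 4 ratios).

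**Figure D2:**
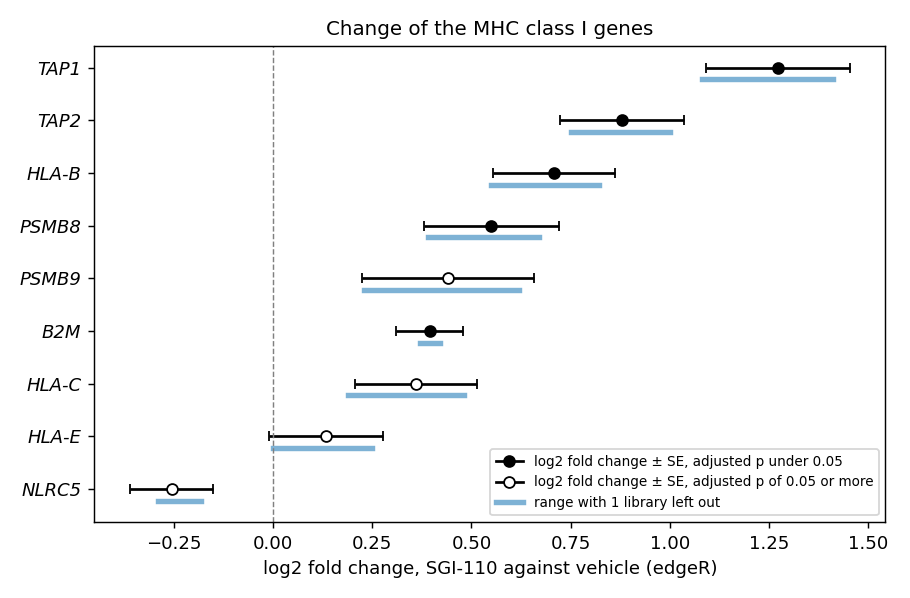
Log2 fold change of SGI-110 against vehicle for each of the 9 genes (x axis, edgeR), with SE as a bar, filled where the adjusted p was under 0.05, and in blue the range of the fits that left out 1 library. TAP1, at 1.27, lies highest and NLRC5, at -0.25, lowest, and the blue range of HLA-E reaches 0.

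TAP2, PSMB8, TAP1 and PSMB9 follow each other within 38019 bp of the class II region of the MHC. PSMB8 and PSMB9 encode the immunoproteasome subunits beta5i and beta1i. PSMB8, on the minus strand, runs from 32808494 to 32812712 and PSMB9, on the plus strand, from 32821938 to 32827628, so that TAP1 and PSMB9 point away from each other. The 189 bp between their starts as deposited have 17 CpG sites and 69.8% GC. This stretch, chr6:32821749-32821937, plus strand, is shown as the DNA between the deposited starts of these divergent genes, although TAP1 rose and PSMB9 did not pass the test. By the RefSeq start of TAP1, which lies inside the deposited transcript, the DNA between the genes is longer. The first RefSeq window of TAP1, shown in part below, held 2 interferon regulatory factor cores and 1 kB match. In GRCh37 the stretch between the deposited starts held 1 match to the core of the cAMP response element, in capitals, and none to the other 3 patterns.
TAP1 to PSMB9: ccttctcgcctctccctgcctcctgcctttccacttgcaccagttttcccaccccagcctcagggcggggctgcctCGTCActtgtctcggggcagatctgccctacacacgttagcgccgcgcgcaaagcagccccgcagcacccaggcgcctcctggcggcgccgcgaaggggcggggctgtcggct

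The first RefSeq window of TAP1 and the window of TAP2 held pairs of interferon regulatory factor cores. They are shown for the largest changes of the set. The TAP1 stretch matched GRCh37 at chr6:32821539-32821731, minus strand, inside the transcript as deposited, and the TAP2 stretch at chr6:32806542-32806598, minus strand.
TAP1: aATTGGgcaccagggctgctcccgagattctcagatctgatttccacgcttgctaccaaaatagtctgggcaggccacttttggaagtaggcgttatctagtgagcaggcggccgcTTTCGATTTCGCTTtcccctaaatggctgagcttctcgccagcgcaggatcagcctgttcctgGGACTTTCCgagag
TAP2: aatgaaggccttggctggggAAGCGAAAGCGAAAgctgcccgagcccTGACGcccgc

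PSMB8 had 2650.4, 2808.8 and 1894.5 normalized counts in vehicle and 2960.9, 4023.6 and 3787.9 in SGI-110. The groups did not overlap, but the lowest SGI-110 library was close to the highest vehicle library. The log2 fold change of PSMB8 was 0.55 ± 0.17 (edgeR adjusted p = 0.0314). Its call was lost without vehicle replicate 1 (adjusted p = 0.0579), SGI-110 replicate 2 (0.0883) or SGI-110 replicate 3 (0.13), without the filter on low counts (0.0529), and without vehicle replicate 3 and SGI-110 replicate 2 together (0.31, adjusted p = 0.0516). PSMB9 had 1897.1, 1976.7 and 1292.1 normalized counts in vehicle and 1730.2, 2995.8 and 2301.8 in SGI-110. SGI-110 replicate 1 lay below vehicle replicates 1 and 2, and the groups overlapped. The log2 fold change of PSMB9 was 0.44 ± 0.22 (edgeR adjusted p = 0.141), and without SGI-110 replicate 1 it was 0.62 (adjusted p = 0.0413). Without vehicle replicate 3 and SGI-110 replicate 2 together it was 0.06 (adjusted p = 0.738).

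Each immunoproteasome subunit replaces a constitutive one, PSMB8 in place of PSMB5, PSMB9 in place of PSMB6 and PSMB10 in place of PSMB7. The log2 ratio per kb of PSMB8 to PSMB5 was -1.41, -1.35 and -1.45 in vehicle and -1.34, -1.22 and -1.20 in SGI-110. The groups did not overlap, but the difference was only 0.15 (exact permutation p = 0.1, 0.15 adjusted over 3 ratios). For PSMB9 to PSMB6 the ratio was -1.26, -1.19 and -1.36 in vehicle and -1.40, -0.73 and -1.16 in SGI-110, with overlap (exact permutation p = 0.6). For PSMB10 to PSMB7 it was -1.41, -1.18 and -1.34 in vehicle and -2.58, -2.06 and -2.61 in SGI-110. The difference of -1.11 was opposite in direction to that of PSMB8 to PSMB5, with no overlap (exact permutation p = 0.1, 0.15 adjusted over 3 ratios). In the fit across all genes PSMB7 rose, with a log2 fold change of 0.70 ± 0.14 (edgeR adjusted p = 0.00468), and PSMB10 had one of -0.40 ± 0.18 (adjusted p = 0.113). PSMB10 passed the threshold without vehicle replicate 3 (-0.55, adjusted p = 0.0196), without SGI-110 replicate 2 (-0.56, adjusted p = 0.0368) and with GC and length offsets (-0.48, adjusted p = 0.00543). It also passed without vehicle replicate 3 and SGI-110 replicate 2 together (-0.71, adjusted p = 7.35e-05).

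**Figure D3:**
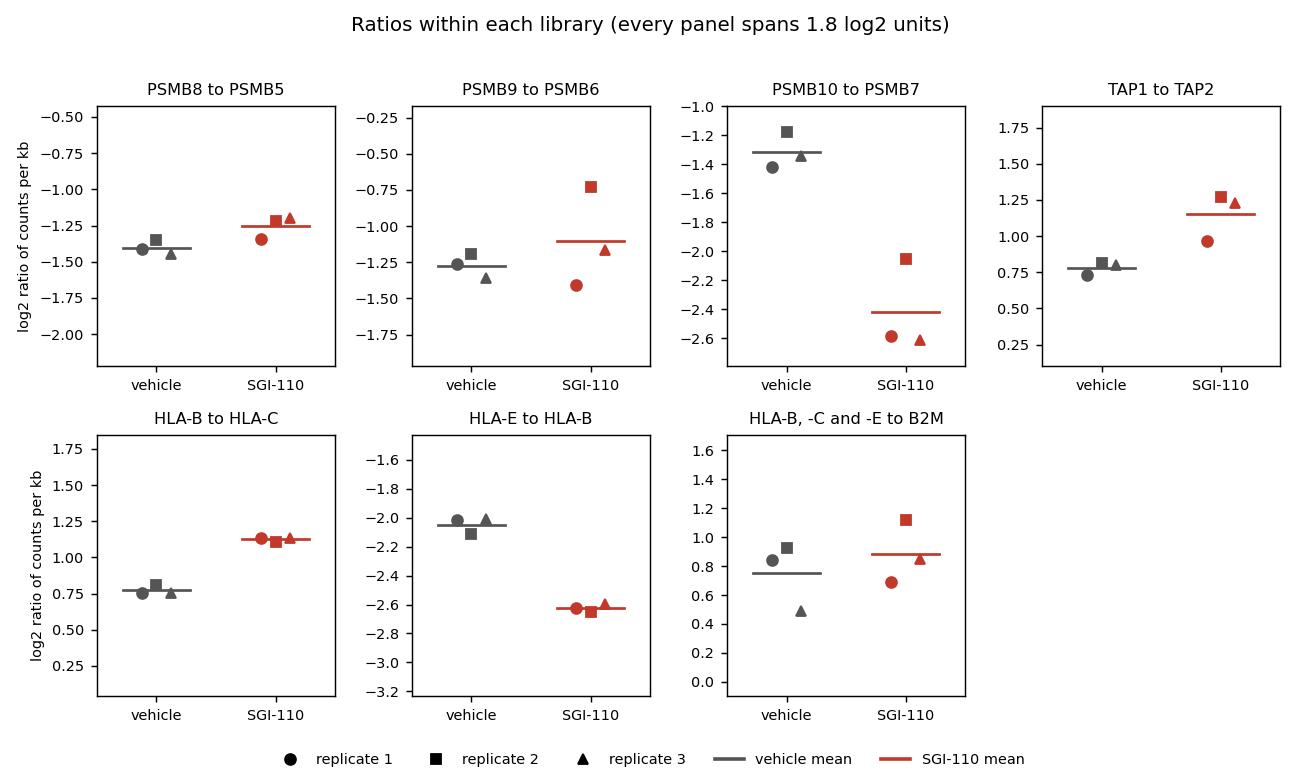
Log2 ratios of counts per kb within each library (y axis; every panel spans the same range of log2 units but is centred on its own values), with replicate numbers as symbols and the group mean as a line, n = 3 per group. HLA-B to HLA-C and TAP1 to TAP2 are higher and HLA-E to HLA-B and PSMB10 to PSMB7 lower in all SGI-110 libraries, while PSMB9 to PSMB6 and the summed heavy chains to B2M overlap between groups.

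NLRC5 encodes the class I transactivator, which joins the factors bound at class I promoters and raises transcription of several of the genes above. It lies on chromosome 16 from 57050986 to 57117436 on the plus strand. NLRC5 had 540, 615.6 and 534.4 normalized counts in vehicle and 477.7, 470.1 and 467.4 in SGI-110. All SGI-110 libraries lay below all vehicle libraries, and SGI-110 replicate 2 did not stand out. The means were 563.3 ± 45.4 and 471.7 ± 5.32 (SD, n = 3 each), and the log2 fold change of -0.25 ± 0.10 did not pass the test (edgeR adjusted p = 0.085). It was -0.29 to -0.18 with 1 library left out and -0.01 with GC and length offsets.

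Per kb of counted exon, which allows levels of different genes to be set side by side, B2M had 22247 ± 494 and HLA-B 20648.1 ± 2930 normalized counts in vehicle, with overlapping ranges. HLA-C followed with 12066.1 ± 1520 and HLA-E with 4980.6 ± 584. PSMB8 had 1806.4 ± 360 and PSMB9 1643.1 ± 357, which overlapped, and TAP1 had 1155.4 ± 175, which overlapped with PSMB9 and not with PSMB8. TAP2 had 673.4 ± 117 and NLRC5, the regulator, 83.8 ± 6.74. Apart from the overlaps named, neighbours in this order were separate over the 3 vehicle libraries.

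In SGI-110 the order of levels per kb changed in its upper and middle ranks. HLA-B had 33736.2 ± 6360 and B2M 29258.2 ± 1120 normalized counts per kb, again with overlap, ahead of HLA-C with 15491.7 ± 3110 and HLA-E with 5465 ± 963. TAP1, with 2792.3 ± 657, came to the level of PSMB8, with 2646.1 ± 411, and PSMB9, with 2235.3 ± 605, and the ranges of these 3 overlapped. TAP2 had 1239.5 ± 184 and NLRC5 70.2 ± 0.791, each separate from its neighbours.

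Several of these spans overlap other annotated genes, and whether the counting used the strand is not given in the sources used here. PSMB8 and TAP1 overlap the antisense RNA PSMB8-AS1 by 858 and 1292 bp and annotated transcripts of PSMB9 by 800 and 8763 bp on the opposite strand. TAP2 lies within a readthrough gene over 16938 bp of the same strand, NLRC5 overlaps a long noncoding RNA by 5993 bp, and HLA-B overlaps a pseudogene by 566 bp, both on the opposite strand. Where exons coincide, the reads of such partners cannot be told apart.

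Other genes of the pathway were counted from 7 lists of 57 genes, of which 53 were in the table and tested. In all, 20 rose, 5 fell and 28 did not pass, against 19.3% of all genes tested called higher and 18.4% called lower, and the median log2 fold change was 0.231 against 0.018 over all genes. With GC and length offsets 18 of them were higher and 10 lower. Of 7 genes for peptide loading and trimming 3 rose, 1 fell and 3 did not pass. ERAP1, an aminopeptidase that trims peptides in the endoplasmic reticulum, had 805.7, 731.8 and 820.2 normalized counts in vehicle and 1267.1, 1101 and 1167 in SGI-110, with no overlap. Its log2 fold change was 0.59 ± 0.11 (edgeR adjusted p = 0.0025). CANX, encoding the chaperone calnexin, rose by 0.43 (adjusted p = 0.0237) and TAPBP, encoding tapasin, which bridges TAP and the heavy chain, by 0.28 (adjusted p = 0.0383), while CALR, encoding calreticulin, fell by 0.30 on the log2 scale (adjusted p = 0.0339). The calls of CANX, TAPBP and CALR were each lost in at least 4 of the 6 fits without 1 library.

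Of 5 further genes of the immunoproteasome and its activators 3 rose and 0 fell, and PSMB10 and PSME1 did not pass. PSME2, a subunit of the PA28 activator that interferon-gamma induces, had 1730.4, 1700.1 and 1363.9 normalized counts in vehicle and 2338.3, 2885.9 and 2773.2 in SGI-110. These groups were separate, and the log2 fold change of PSME2 was 0.74 ± 0.13 (edgeR adjusted p = 0.00234). PSME3, which encodes the nuclear PA28 gamma and is not a subunit of the immunoproteasome, rose by 0.58 (adjusted p = 0.00134), and POMP, which helps proteasomes assemble, by 0.54 (adjusted p = 0.0109), a call lost without SGI-110 replicate 3 (0.47, adjusted p = 0.0704). For PSME1, the partner of PSME2 in the activator ring, it was -0.05 (adjusted p = 0.726).

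The constitutive proteasome rose in part as well. Of the 3 constitutive catalytic subunits PSMB7 rose, and PSMB5, at 0.40 (edgeR adjusted p = 0.0584), and PSMB6, at 0.25 (adjusted p = 0.184), did not pass. PSMB5 passed with library totals only (0.44, adjusted p = 0.0195) and with at least 10 counts in every library (0.41, adjusted p = 0.0412). Leaving out SGI-110 replicate 1 also brought PSMB5 past the threshold (0.49, adjusted p = 0.0389). Of the 11 other subunits of the 20S core 6 rose and 0 fell, against 19.3% and 18.4% of all genes tested, and the median log2 fold change was 0.327. PSMB3 rose by 0.68 (adjusted p = 0.00181), PSMA5 by 0.63 (adjusted p = 0.0017), PSMB1 by 0.53 (adjusted p = 0.00411) and PSMB4 by 0.44 (adjusted p = 0.0258). With 1 library left out, 3 to 6 of these 11 genes were called higher, and PSMB4 lost its call without vehicle replicate 2, vehicle replicate 3 or SGI-110 replicate 3. With GC and length offsets 4 of the 11 were higher and 1 lower, PSMB1 was at 0.28 (adjusted p = 0.0246), and PSMB4 (0.26, adjusted p = 0.103) and PSMA3 (0.08, adjusted p = 0.585) lost their calls, while PSMA1 was called lower (-0.22, adjusted p = 0.046).

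Of 11 genes of interferon-gamma signalling 3 were higher, 2 lower and 6 not called, shares near those of all genes tested (19.3% higher and 18.4% lower), and the median was 0.071. JAK1, the receptor-bound kinase, rose by 0.66 on the log2 scale (edgeR adjusted p = 0.00153) and had 2004.7, 1937.7 and 2013.4 normalized counts in vehicle and 3373.8, 2757.7 and 3250.8 in SGI-110, with no overlap. IRF2 rose by 0.40 (adjusted p = 0.0399). SOCS3, an inhibitor of JAK signalling, fell by 0.92 on the log2 scale (adjusted p = 0.00181), and STAT2, which acts in the type I interferon response, by 0.40 (adjusted p = 0.0138). IRF2 and STAT2 lost their calls without any of several single libraries. IRF1, an activator at class I promoters that is named here after its values were seen, differed by -0.08 on the log2 scale (adjusted p = 0.624).

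Of 10 genes encoding factors that act at class I promoters, 2 rose, 0 fell and 8 did not pass, near the 19.3% called higher among all genes tested, and the median was -0.085. With GC and length offsets 2 were higher and 3 lower, namely RFXANK (-0.41), ATF1 (-0.26) and NFYB (-0.27). NFKB1, which encodes an NF-kB subunit, had 1016.2, 1024.3 and 1000.1 normalized counts in vehicle and 1811.2, 1701.4 and 1655.7 in SGI-110, a log2 fold change of 0.77 ± 0.10 (edgeR adjusted p = 0.000326). RELA, which encodes another, rose by 0.36 (adjusted p = 0.0237), a call that was lost in 5 of the 6 fits without 1 library. NFYB and NFYC, subunits of the factor that binds CCAAT, had log2 fold changes of -0.21 (adjusted p = 0.14) and -0.22 (adjusted p = 0.141).

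The other heavy chains and their relatives were split, with 2 of the 6 tested genes higher, 2 lower and 2 not called. HLA-F, a nonclassical chain, rose by 0.54 (edgeR adjusted p = 0.00848), and MR1, which presents vitamin B metabolites to MAIT cells, by 0.53 (adjusted p = 0.0333). HFE, which regulates iron uptake and presents no peptides, had 787.6, 780.3 and 734.5 normalized counts in vehicle and 315, 333.8 and 288.7 in SGI-110. Its log2 fold change was -1.30 ± 0.11 (adjusted p = 2.75e-05). FCGRT, which encodes the heavy chain of the neonatal Fc receptor and also pairs with B2M, fell by 0.92 on the log2 scale (adjusted p = 0.0119), a call lost without SGI-110 replicate 3 (adjusted p = 0.0631). MR1 lost its call without vehicle replicate 1, vehicle replicate 2 or SGI-110 replicate 1.

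**Figure D4:**
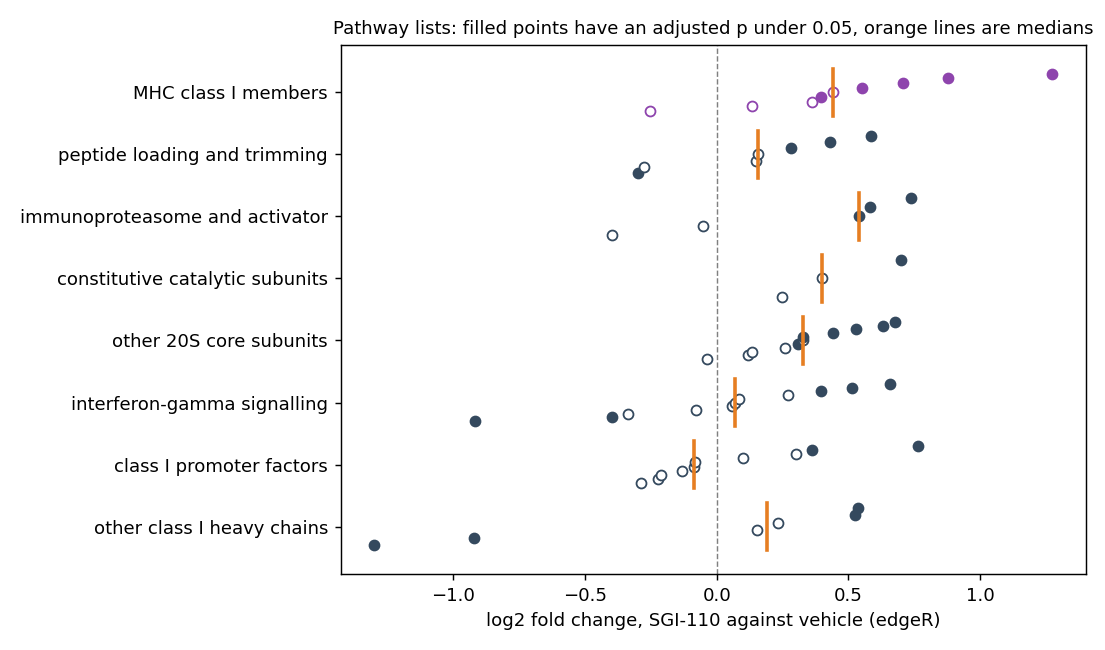
Log2 fold change of SGI-110 against vehicle (x axis, edgeR) of the 9 genes in purple and of the genes tested in each of the 7 other pathway lists in blue-grey, with filled points for an adjusted p under 0.05 and an orange line at the median of each list. The points of the immunoproteasome and 20S core lists lie mostly to the right of 0, and those of the heavy chain relatives spread from -1.30 for HFE to 0.54 for HLA-F.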

How the data were processed

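MDA-MB-231 RNA was sequenced from 3 vehicle and 3 SGI-110 cultures, grouped by the sample titles. The authors aligned reads to hg19 with STAR (version 2.3.1z and DESeq2 are named in the submitters' processing notes), used iRNA-seq to count exon reads per RefSeq transcript, and deposited these raw counts with the exon length in bp. The deposited table also held the authors' regularized log values and the fold changes, errors and p-values of their own comparison, which were not used. The library is from a TruSeq RNA kit, and low totals, above all in SGI-110 replicate 2, widen counting error.

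Counts were fitted with edgeR 4.0.16 in R 4.3.3 (limma 3.58.1), with TMM normalization, filterByExpr (minimum count 10) and the quasi-likelihood test. Benjamini-Hochberg adjustment covered 13322 genes, with a threshold of 0.05. Normalized counts are per 17911210 counts, the mean of the library totals. The script was tested on simulated counts. Ratios used counts per kb within a library and two-sided exact permutation tests, adjusted within 2 families. The 0-based starts of the table were converted to 1-based positions. Gene overlaps and exons came from GENCODE release 44 on GRCh37 and promoter windows (250 bases before to 50 after each start) from RefSeq.

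All 9 genes are named. Of each further list, those with the 4 smallest adjusted p and those in a ratio are named with values, and exceptions are stated. Some genes of these lists are counted but not reported here by name. The genes, the lists and the rules were chosen with earlier results of these data known. The alternatives were a replicate block, the Wald test of DESeq2 1.42.0, its size factors, library totals only, no filter, at least 10 counts in every library and each library left out. Offsets from a spline on GC content and length (centred on each library's median), and leaving out vehicle replicate 3 and SGI-110 replicate 2 together, were added after seeing the data.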

Additional observations from a re-analysis of the deposited data

How the results depend on the processing

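The 5 rises of TAP1, TAP2, HLA-B, B2M and PSMB8 kept their direction under all 14 alternatives, and those of TAP1, TAP2 and HLA-B stayed past the threshold. With library totals only, HLA-C passed it (0.40). With no filter, PSMB8 no longer did (0.56). With GC and length offsets, HLA-C passed (0.30), B2M did not (0.15) and 10 companion genes fell in place of 5. Without vehicle replicate 3 and SGI-110 replicate 2 together, PSMB8 no longer passed (0.31) and HLA-E turned to -0.10. HLA-E also turned below zero, by less than 0.01 (printed as 0.00), without SGI-110 replicate 2. The cause was not tested. With each single library left out, the log2 fold changes were 1.08 to 1.41 for TAP1, 0.75 to 1.00 for TAP2, 0.55 to 0.82 for HLA-B, 0.37 to 0.42 for B2M, 0.39 to 0.67 for PSMB8, 0.23 to 0.62 for PSMB9, 0.19 to 0.48 for HLA-C, 0.00 to 0.25 for HLA-E and -0.29 to -0.18 for NLRC5. In those fits 4 to 7 of the 9 genes were higher and 0 lower, and 11 to 18 companion genes were higher and 2 to 6 lower. With the DESeq2 Wald test 5 members were higher and 0 lower.

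Same-numbered libraries did not deviate together, with correlations of -0.05, 0.049 and -0.037, and the main fit used no block. Each deviation is from a mean of only 3 libraries, so these values cannot exclude that the numbers pair the samples. With a replicate block 5 of the 9 genes were higher, TAP1 by 1.26, and no call among the 9 changed. Of the companion genes 15 were higher and 4 lower, and TAPBP (adjusted p = 0.0957), CALR (0.0812), RELA (0.0524), MR1 (0.0563), PSMA3 (0.0628) and PSMB2 (0.0704) lost their calls. Depth limits SGI-110 replicate 2 most, at 8792127 counts.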
